A study of Mus musculus with 2 samples.

Results

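The microRNA genes Mir205 and Mir203, known from surface ectoderm and keratinocytes, were described in the facial prominences of mouse embryos. They are 2 of the 1973 microRNA loci in the count tables and were chosen by name, by a rule that uses no measured value, although earlier results of these data were known. The tissue was the facial prominence at embryonic day 11.5, taken from healthy B6NCrl embryos of both sexes. There was 1 group with 2 biological replicates: replicate 1 was a pool of 109 embryos and replicate 2 a pool of 88. The labels give no treatment and no altered genotype, and both pools carry the same donor entry. Levels were measured by small-RNA sequencing of total RNA, with inserts under 30 bases according to the labels.

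MicroRNAs are short RNAs cut from a hairpin precursor, and each is loaded into a protein complex that represses messenger RNAs paired to its seed, bases 2 to 8 of the mature strand. The embryonic face is made of mesenchyme, much of it from neural crest, under a covering of surface ectoderm. Mir205 is known from stratified and glandular epithelia, where with the Mir200 family it represses Zeb1 and Zeb2, transcription factors that promote a mesenchymal state. Mir203 is known from differentiating epidermis, where it represses Trp63, the gene of the transcription factor p63 that maintains epidermal progenitors.

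The mature arms are shown because the seed determines which messenger RNAs a microRNA can pair with. Capitals mark the seed, and the sequences are those of RefSeq on GRCm38.p6, where both genes were matched.
mmu-miR-205-5p: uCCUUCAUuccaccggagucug
mmu-miR-205-3p: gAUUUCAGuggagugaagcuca
mmu-miR-203-5p: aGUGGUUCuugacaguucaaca
mmu-miR-203-3p: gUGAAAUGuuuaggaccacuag
All 4 arms were 22 bases long. None of the 4 seeds occurred in any other of the 1738 mature sequences of the RefSeq table, and neither did bases 2 to 7 alone. Mir205 and Mir203 therefore had different seeds, and no further locus was added to them as a seed relative. For comparison, the 3p arms of the 5 loci of the Mir200 family, which is also known from epithelia, fell into 2 seed groups.
mmu-miR-200b-3p: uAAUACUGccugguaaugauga
mmu-miR-200c-3p: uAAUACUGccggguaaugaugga
mmu-miR-429-3p: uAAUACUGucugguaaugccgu
mmu-miR-200a-3p: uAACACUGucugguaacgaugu
mmu-miR-141-3p: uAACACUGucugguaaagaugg
The first 3 shared a seed with each other, and so did the last 2.

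The hairpins are shown because the count tables give 1 value per locus, which adds up reads from anywhere in the hairpin. Here capitals mark the 2 mature arms.
Mir205: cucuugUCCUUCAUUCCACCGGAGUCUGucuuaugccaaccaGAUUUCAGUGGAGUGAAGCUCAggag
Mir203: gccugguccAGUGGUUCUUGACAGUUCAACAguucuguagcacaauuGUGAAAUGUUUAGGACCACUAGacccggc
The Mir205 hairpin was 68 bases long and folded in RNAfold with 25 base pairs at a minimum free energy of -33.8 kcal/mol. The Mir203 hairpin was 76 bases long and folded with 31 base pairs at -35.1 kcal/mol. The longest run of bases that the hairpins had in common with each other was 6 bases. Against the hairpins of all 1894 loci with a GENCODE M21 symbol, on both strands, the longest shared run was 14 bases for Mir205, with Mir6397, and 11 bases for Mir203. Mir6397 had 0 counts in both libraries. None of the 4 arms occurred in full in a GENCODE transcript of any gene other than its own locus and the host gene of Mir205. Both runs are shorter than a mature arm. The genome outside annotated transcripts was not searched.

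Mir205 (ENSMUSG00000065533.1) lies on the minus strand of mm10, at chr1:193507463-193507530. It is exonic: the hairpin falls inside exon 2 of the 2 exons of a long non-coding RNA on the same strand, named 4631405K08Rik in GENCODE M21 and Mir205hg in RefSeq. Its first base lies 2644 bases from the start of that gene. Mir203 (ENSMUSG00000065574.1) lies on the plus strand at chr12:112130880-112130955 and is intergenic in GENCODE M21. The nearest genes were Aspg, which ends 3320 bases upstream, and Kif26a, which starts 15252 bases downstream, both on the same strand. Within 10 kb of either member GENCODE listed no further microRNA gene. RefSeq also annotates a microRNA, Mir203b (listed as Gm51289), on the opposite strand inside the Mir203 hairpin, and it overlaps the hairpin over all of its 60 bases.

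**Figure D1:**
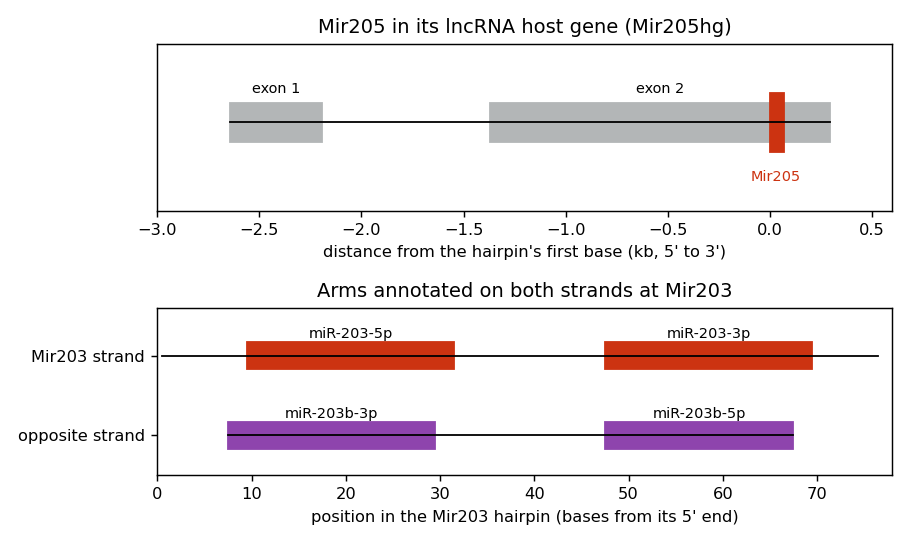
The upper panel shows the Mir205 hairpin and the exons of its host gene by distance from the first base of the hairpin in kb, and the lower panel shows the annotated arms on both strands of the Mir203 hairpin by position in bases. Mir205 sits near the end of exon 2, and the arms of Mir203 face those of Mir203b.

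Across the loci, replicate 1 held 1941745 sense counts and replicate 2 held 2319881. Another 22.7% of all reads in replicate 1 and 20.5% in replicate 2 were placed at several positions and belong to no locus. Defining loci of other tissues were present as well. Each of the 7 loci of the mesenchyme list had 10 or more counts in both libraries, and together they took 5.25% of the sense counts in replicate 1 and 5.58% in replicate 2. The endothelial Mir126a took 3.90% and 4.04%, and the neural list at most 0.0198%. The muscle list took 0.0628% and 0.149%, with Mir133a-1 and Mir133a-2 at 0 counts, and the erythroid list 0.0264% and 0.0593%. The loci of the neural list, and Mir1a-1, Mir133a-1 and Mir133a-2 of the muscle list, have numbered copies. So do Mir199a-1 and Mir199a-2 of the mesenchyme list. Reads of near-identical copies can fall in the class placed at several positions, so low shares and counts of 0 at such loci do not show low expression. Mir208a, Mir208b, Mir499, Mir133b and Mir206, without numbered copies, had mean levels from 16.0 to 485 CPM. Loci of different names can also have near-identical arms, and this was not checked for these loci or for Mir199b. Their levels may therefore be too low as well. How far copies lowered the list shares was not tested.

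Mir205 was abundant and steady between the pools. It had 15856 sense counts in replicate 1 and 18403 in replicate 2. Scaled to 1e+06 sense counts per library (CPM), its level was 8166 CPM in replicate 1 (95% exact binomial interval 8040 to 8293) and 7933 CPM in replicate 2 (7819 to 8048). The mean was 8049 ± 165 CPM (SD, n = 2), so that the locus took 0.805% of all sense counts. The SD was 2.05% of the mean.

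Mir203 was somewhat lower. It had 12227 sense counts in replicate 1 and 13359 in replicate 2, which were 6297 CPM (6186 to 6409) and 5758 CPM (5662 to 5857). The mean was 6028 ± 381 CPM (SD, n = 2), or 0.603% of the sense counts, and the SD was 6.32% of the mean. Replicate 1 was the higher library for both genes. These intervals cover only the counting error of reads within a library. The labels name no molecular identifiers, so reads copied from the same molecule cannot be told apart.

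By mean level Mir205 ranked 35 and Mir203 ranked 44 of the 1973 loci. The rank of Mir205 was 32 in replicate 1 and 34 in replicate 2, and that of Mir203 was 43 and 45. Of the 351 loci with at least 10 counts in both libraries, 90.0% lay below Mir205 and 87.5% below Mir203. Mir205 stood at 41.9 times the median level of those loci and Mir203 at 31.4 times. Both were far from the top of the profile. Mir205 was at 0.0923 of the level of Mir335, the most abundant locus, and Mir203 at 0.0690 (geometric means of both libraries). Against Mir17, the next most abundant, they were at 0.120 and 0.0896.

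**Figure D2:**
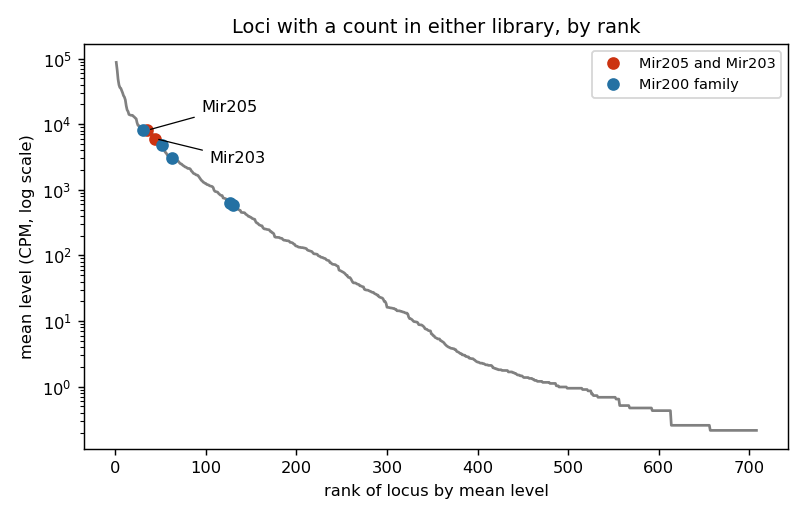
Each locus with a count in either library is placed by its rank (horizontal axis) and its mean level in CPM on a log scale (vertical axis), with Mir205 and Mir203 in red and the Mir200 family in blue. Mir205 at rank 35 and Mir203 at rank 44 lie close together on the steep first part of the curve.

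Mir205 was higher than Mir203 in both libraries. The log2 ratio of Mir205 over Mir203 was 0.37 in replicate 1 (95% counting interval 0.34 to 0.41) and 0.46 in replicate 2 (0.43 to 0.49). Its mean was 0.42 ± 0.06 (SD, n = 2), or 1.34-fold. In each library this was larger than the log2 ratio between the replicates for either gene, which was at most 0.13. The ratio itself differed between the pools by -0.09 (replicate 1 minus replicate 2; counting interval -0.13 to -0.04). With the spread between replicates estimated by edgeR over the 351 loci with at least 10 counts in both libraries (a coefficient of variation of 16.5%) added, the interval was -1.02 to 0.85 and included 0. Because all 4 arms have the same length, no correction for length was applied. How efficiently each arm is ligated and amplified also enters such a ratio, and was not measured here.

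The nearest company of both genes by known tissue was the Mir200 family. Mir205 and Mir203 together took 1.45% of the sense counts in replicate 1 and 1.37% in replicate 2, while the 5 Mir200 loci together took 1.86% and 1.58%. Within the sum of these 7 epithelial loci, Mir205 held 24.7% in replicate 1 (exact interval 24.3 to 25.0) and 26.9% in replicate 2 (26.5 to 27.2). Mir203 held 19.0% (18.7 to 19.3) and 19.5% (19.2 to 19.8). The 2 genes thus made up 43.7% of the counts of these 7 loci in replicate 1 and 46.3% in replicate 2. Other loci expressed in epithelium are not part of this sum.

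In order of mean level the 7 loci were Mir429, Mir205, Mir203, Mir200c, Mir200b, Mir141 and Mir200a. Mir205 and Mir429 did not differ beyond the replicates. The log2 ratio of Mir205 over Mir429 was -0.07 in replicate 1, with a counting interval of -0.10 to -0.04 that excludes 0, and 0.00 in replicate 2 (-0.03 to 0.03). In replicate 1 its size was below the ratio of 0.11 between pools of Mir429. Mir203 was lower than Mir429: the log2 ratio of Mir203 over Mir429 was -0.44 in replicate 1 and -0.46 in replicate 2. Mir203 was above Mir200c by 0.24 in replicate 1 and 0.43 in replicate 2, but Mir200c itself differed by 0.32 between the pools, so this difference did not exceed the replicate difference in both libraries. Mir205 was above Mir200c by 0.62 and 0.90, which did exceed it. The least abundant loci, Mir141 at 623 ± 85.8 CPM and Mir200a at 580 ± 92.0 CPM, were far below both genes. Mir205 was 13.0-fold above Mir141 and 14.0-fold above Mir200a, and Mir203 was 9.72-fold and 10.5-fold above them. Counts say nothing of the number of cells: in bulk tissue, fewer cells of a type and less RNA per cell cannot be told apart.

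**Figure D3:**
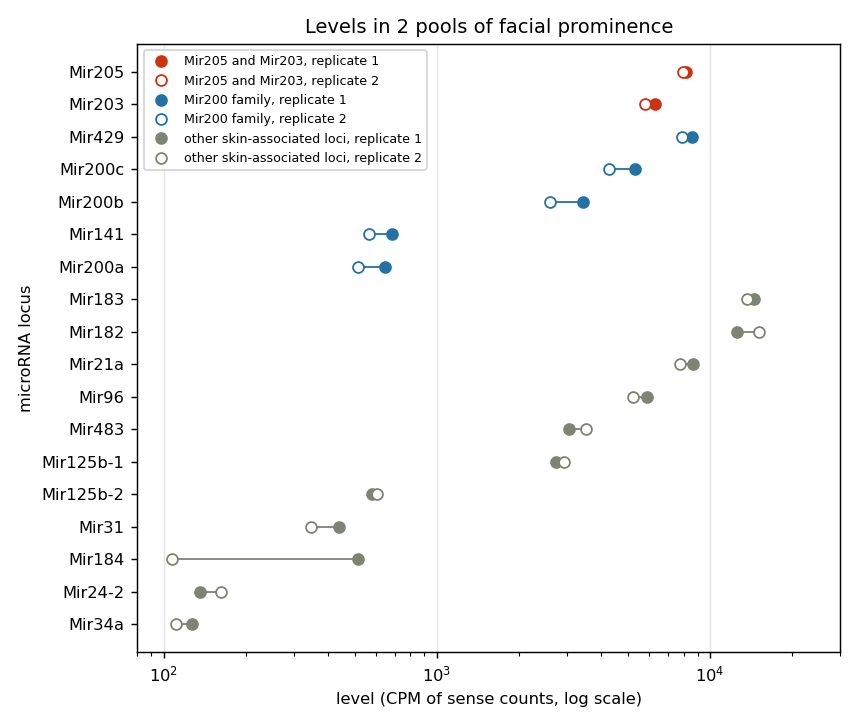
Levels in CPM on a log scale (horizontal axis) are plotted for each locus (vertical axis), with filled points for replicate 1 and open points for replicate 2. Mir205 and Mir203 in red lie in the range of Mir429 and Mir200c, and the 2 points of Mir205 nearly coincide.

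Other microRNAs associated with skin or keratinocytes spanned a wider range. Of the 12 on the list 11 were measured, and each of the 11 had 10 or more counts in both libraries. Their mean levels ran from 119 CPM for Mir34a, a target of p53, to 14050 CPM for Mir183. The median was 2820 CPM, which is the level of Mir125b-1. Mir183, Mir182 at 13855 ± 1842 CPM and Mir21a at 8189 ± 618 CPM were above Mir205 by mean level. Mir21a was above Mir205 in replicate 1 and below it in replicate 2. Mir96, from the same cluster as Mir183 and Mir182, stood at 5549 ± 432 CPM, and Mir31, known from keratinocytes and hair follicles, at 392 ± 63.4 CPM. Many of these loci are also expressed outside epithelium, so their levels do not describe the ectoderm alone. Mir24-2, Mir125b-1 and Mir125b-2 have numbered copies with the same or similar mature sequence, and their levels are uncertain. The median of the list is therefore uncertain too.

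The loci whose levels in both libraries were most like those of each gene were found by Euclidean distance on log2(CPM + 1) over the 2 libraries. For Mir205 they were Mir429 at a distance of 0.07, Mir181c at 0.08 and Mir21a at 0.09. For Mir203 they were Mir1983 at 0.12, Mir30a at 0.14 and Mir96 at 0.17. With 2 libraries this is a likeness of level and nothing more.

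Both levels were also set side by side in the pools. The log2 ratio of replicate 1 over replicate 2 was 0.04 for Mir205 (95% counting interval 0.01 to 0.07) and 0.13 for Mir203 (0.09 to 0.16). As fold differences these were 1.03 and 1.09. With the edgeR spread between replicates added, the log2 intervals were -0.62 to 0.70 for Mir205 and -0.53 to 0.79 for Mir203, and both included 0. Neither gene passed 2-fold. Of 257 loci whose mean count reached 100, 5 did, which is 1.95%: 2 were higher in replicate 1 (0.778%) and 3 were lower there (1.17%). The median absolute log2 ratio of the 257 loci was 0.14. The ratio of Mir205 was smaller in size than all but 15.2% of them, and that of Mir203 was in the middle, with 47.1% of loci smaller.

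Mir205 had the smallest ratio between pools of the 7 epithelial loci, all of which were higher in replicate 1. The other values were 0.11 for Mir429, 0.28 for Mir141, 0.32 for Mir200c, 0.33 for Mir200a and 0.40 for Mir200b. Mir200a, Mir200b and Mir429 lie close together on chromosome 4, and Mir200c and Mir141 on chromosome 6. The 7 ratios may therefore not be independent of each other. Of the 257 loci 49.4% were higher in replicate 1, with a median log2 ratio of -0.01. The log2 ratio of Mir205 over the summed Mir200 family was accordingly -1.19 in replicate 1 and -1.0 in replicate 2, and that of Mir203 was -1.56 and -1.46. By counting error alone Mir205 changed less between pools than each Mir200 locus. The difference closest to 0 was that to Mir429, at -0.07 (-0.11 to -0.03). With the edgeR spread included, the interval of every one of these differences included 0. The summed muscle list had a log2 ratio of -1.25 and the erythroid list of -1.17, both lower in replicate 1. The summed mesenchyme list had -0.09. These sums do not describe each locus. In the erythroid list Mir451a was at -1.33 and Mir144 at 0.02. In the muscle list Mir208a, Mir208b, Mir499 and Mir206 were at -1.93, -1.84, -1.51 and -0.62, and Mir133b at 0.00. Of the 11 measured loci of the skin list 6 were higher and 5 lower in replicate 1, with a median of 0.08. In that list Mir184, known from lens and cornea, was past 2-fold, with levels of 512 CPM (replicate 1) and 107 CPM (replicate 2) and a log2 ratio of 2.26. Whether the make-up of the pools has a part in the ratios of Mir205 and Mir203 was not tested.

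**Figure D4:**
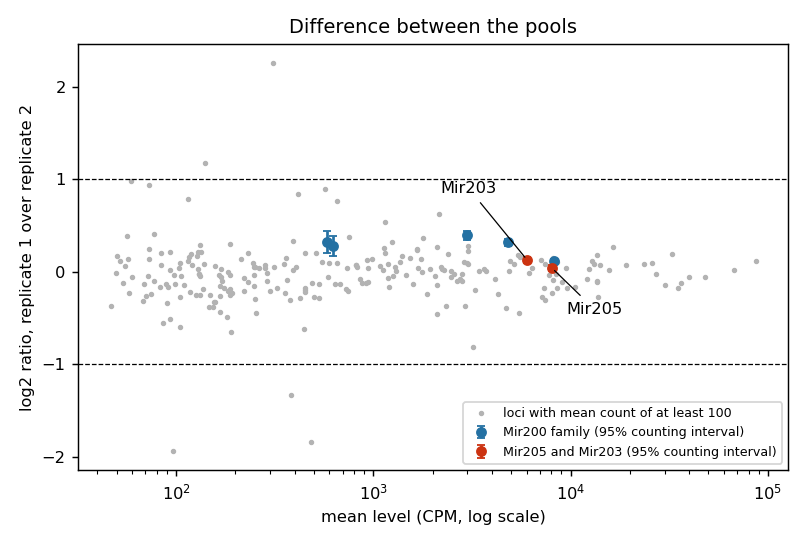
The log2 ratio of replicate 1 over replicate 2 (vertical axis) is plotted against mean level in CPM on a log scale (horizontal axis) for loci whose mean count reached 100; error bars are 95% counting intervals and dashed lines mark 2-fold. Mir205 at 0.04 and Mir203 at 0.13 lie inside the dense band of loci.

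The strands differed between the genes. At Mir205 no read fell on the opposite strand in either library, of 15856 and 18403 stranded counts, which allows a share of up to 0.0189% and 0.0163%. At Mir203 the opposite strand had 24 counts in replicate 1 and 31 in replicate 2. These were 0.196% of the stranded counts at the locus in replicate 1 (exact interval 0.126 to 0.291) and 0.232% in replicate 2 (0.157 to 0.328). The share at Mir203 thus lay above the limit for Mir205 in both pools, and the intervals of the pools overlapped.

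The mature arms annotated on the opposite strand, those of Mir203b, are shown because they resemble the arms of Mir203. Capitals again mark the seed.
mmu-miR-203b-5p: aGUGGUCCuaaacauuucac
mmu-miR-203b-3p: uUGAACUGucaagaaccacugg
Counted from the 5′ end without gaps, miR-203b-5p had 15 of 20 bases identical to miR-203-5p and differed in the seed by U7C. The arm miR-203b-3p had 16 of 22 bases identical to miR-203-3p and differed in the seed by A6C. In both tokens the base of Mir203 comes first. Each difference gives Mir203b a seed of its own, which no other mature sequence of the table had. The tables do not say where in the hairpin the opposite-strand reads lay, so they cannot be assigned to an arm.

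**Figure D5:**
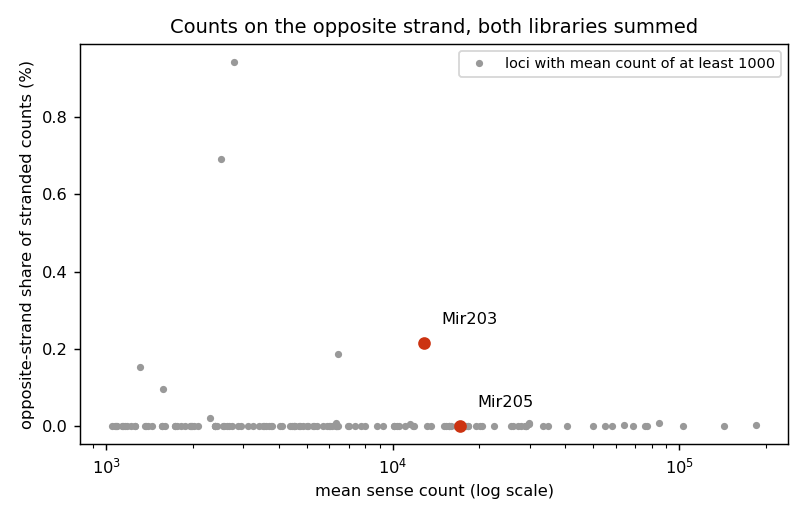
The share of stranded counts on the opposite strand in percent, with both libraries summed (vertical axis), is plotted against the mean sense count on a log scale (horizontal axis) for loci whose mean count reached 1000. Mir203 at 0.214% lies below 2 other loci, and Mir205 lies at 0 with most other loci.

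Over all 1973 loci the opposite strand held 3.03% of the stranded counts in replicate 1 and 3.24% in replicate 2, more than at Mir203. This total is not the share of a typical locus, since it includes loci with hardly any sense counts. Mir142b had 0 sense counts in both libraries, with 1812 opposite-strand counts in replicate 1 and 2099 in replicate 2. Among the 138 loci whose mean count reached 1000, a minimum chosen after values were seen, 122 had no opposite-strand count in either library. Over both libraries Mir203 had a share of 0.214% (0.162 to 0.279), and 2 loci had a higher one, Mir337 at 0.943% and Mir374b at 0.691%. With a minimum mean count of 100, 8 of 257 loci had a higher share than Mir203.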

How the data were processed

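The authors deposited raw counts per microRNA locus, made from alignments to mm10 with the GENCODE M4 annotation, per the file headers. Each library has its own table with 3 columns: sense, opposite strand, and their sum. The aligner and counting program are not given in the sources used here. Library sizes exclude the 4 lines without a gene name. In replicate 1, 40.8% of 4755968 reads were assigned to the sense strand of a locus, and in replicate 2, 34.2% of 6781929.

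Identifiers were joined to GENCODE M21 (same assembly) with versions ignored: 1894 of 1973 matched. The sense column was scaled to CPM by its total. There was 1 group, so no conditions were tested, and a two-sided exact test over 2 libraries cannot go below p = 0.5. Counting intervals are exact (Clopper-Pearson, 95%), and a count of 0 was read as up to 3 counts. Where 2 loci are said to differ beyond the replicates, their log2 ratio in each library was larger than the log2 ratio between replicates of both. Intervals with spread used a normal approximation and the common dispersion of an intercept-only edgeR model over 351 loci. The ratio step was tested on simulated data. Loci were named by rule: both genes, the Mir200 family, the skin list, overlapping loci, the 3 nearest in level and the 2 most abundant. Outside it are marker loci and, named after their values were seen, Mir6397, Mir142b, Mir337, Mir374b, Mir708 and Mir30e. Genes and lists were chosen with earlier results of these data known. Alternatives were other denominators, strand columns, pseudocounts, count minimums, TMM and DESeq2 scaling, and leaving out a replicate. Versions were edgeR 4.0.16, DESeq2 1.42.0, R 4.3.3, ViennaRNA 2.7.2, scipy 1.17.1, numpy 2.4.6, matplotlib 3.10.9, pandas 2.3.3 and Python 3.11.15.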

Additional observations from a re-analysis of the deposited data

Results flagged for a closer look

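Counts on the opposite strand of Mir203, which enter no level above, stood at 24 in replicate 1 and 31 in replicate 2. Both are over the limit of 3 counts that a count of 0 allows, while Mir205 had 0 in both libraries. The annotated Mir203b lies on that strand. Which RNA gave these reads was not tested.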

How the results depend on the processing

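Of 48 recomputed values, 32 moved by less than the spread used as the yardstick, 14 moved by more and 2 changed sign. For levels, ratios between loci and the opposite-strand share, the yardstick was the SD of the 2 replicates. Leaving out a replicate always moves such a mean by less than that SD, so those values could not count as moved. For the number of loci past 2-fold the yardstick was 0, so any change counted as moved. The tally is therefore no measure of robustness. The levels depend on the denominator. With counts of both strands, or the column irrespective of strand, Mir205 stood at 7797 CPM. With all reads of the library Mir205 stood at 3024 and Mir203 at 2270 CPM, and without the 10 most abundant loci at 14111 and 10567 CPM. In single libraries the rank of Mir205 was 32 to 34, and by the column irrespective of strand Mir203 ranked 46. With a minimum of 1 count in both libraries, 93.8% of detected loci lay below Mir205 and 92.2% below Mir203. Among alternatives added after the data were seen, the log2 ratio of Mir205 over Mir203 per base of hairpin was 0.58. The 2 changes of sign were those of the log2 ratios over the summed Mir200 family. With the median of the 5 loci in place of their sum they were 1.44 for Mir205, against -1.09, and 1.02 for Mir203, against -1.51, since a sum over 5 loci exceeds their median. Mir203 ranked 9 by opposite-strand share with a minimum mean count of 100. The number of loci past 2-fold between pools was 13 with a minimum of 20 and 3 with a minimum of 500; TMM and DESeq2 scaling kept it at 5. No paired analysis was possible because there is 1 group. The ratio between pools needs both libraries and could not be computed without either.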

Other observations

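Opposite-strand counts were also set beside the annotation, a comparison chosen after the values were seen. Of the 138 loci whose mean count reached 1000, 6 had a RefSeq microRNA on the opposite strand, and 5 of these had opposite-strand counts. Among the other 132 loci, 11 had any. The 3 of these 138 loci with the highest shares were all of the annotated kind. This depends on the minimum of 1000, since with a minimum of 100, 8 of 257 loci had a higher share than Mir203. Opposite-strand annotation was not looked up for loci below 1000. Mir337, which lies opposite Mir3544, had 15 and 38 opposite-strand counts in replicates 1 and 2. Mir374b, opposite Mir374c, had 18 and 17, and Mir203, opposite Mir203b, had 24 and 31. Mir708, with no such annotation, came next with 18 and 6. Mir30e, which lies opposite Mir30f, had none in either library.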
